A study of Mus musculus with 12 samples.

Results

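Iron uptake, storage and export were followed through 10 genes, chosen by name from the 43629 genes of the deposited count table: Tfrc, Slc11a2, Slc39a14, Steap3, Fth1, Ftl1, Ncoa4, Slc40a1, Hmox1 and Ireb2. All 10 had a row, 9 held enough counts to be tested, and Slc40a1 did not. RNA sequencing after poly(A) selection covered 6 IFNG and 6 Control samples of neuronal culture from mouse cortex. By the protocol, a lentivirus expressing Ifng, which encodes the cytokine interferon-gamma, was added on day 7 in vitro, and cells were collected 10 days later. The Control samples carry the same protocol text, so that the virus they received, if any, is not given, nor are the construct's promoter and the mouse strain and age. Separate cultures or animals are not stated for the 6 samples of either group, and p-values therefore measure a spread between samples that may be technical.

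Cells take up most iron as ferric iron bound to transferrin. The transferrin receptor, encoded by Tfrc, carries it into endosomes, where a ferrireductase such as STEAP3 reduces it and DMT1, the product of Slc11a2, moves it to the cytosol. ZIP14, the product of Slc39a14, takes up iron that is not bound to transferrin. Iron in excess is stored inside shells of ferritin heavy and light chains (Fth1 and Ftl1), which the receptor NCOA4 delivers to lysosomes for breakdown. Ferroportin (Slc40a1) is the known exporter of cellular iron, and haem oxygenase (Hmox1) frees iron from haem. In iron-poor cells the iron regulatory proteins, one of them the product of Ireb2, bind hairpins called iron-responsive elements in messenger RNA. In a 3′ UTR this binding protects the Tfrc message from decay, and in a 5′ UTR it blocks translation of the ferritin and ferroportin messages. Levels of messenger RNA therefore do not read the 5′ UTR arm of the control.

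The elements are shown because they set these genes apart in how iron acts on their messages. The GENCODE M21 transcripts (build GRCm38) were searched for a bulged C, 5 bases, the loop CAGTGN or CAGAGN, and 5 bases pairing with those before the loop, with at least 3 of 5 pairs below the bulge. Transcripts of 239 of 21951 protein-coding genes (1.09%) held such a stretch, and 4 of the 10 iron genes did. Each element is written as 29 bases of the transcript strand, with the loop in capitals. The 5 of Tfrc lie in its 3′ UTR between 32631160 and 32631738 on chromosome 16 (plus strand), and those of Fth1 (chr19:9982732-9982760, plus strand), Ftl1 (chr7:45459779-45459807, minus strand) and Slc40a1 (chr1:45925465-45925493, minus strand) lie in the 5′ UTR.
Tfrc element 1: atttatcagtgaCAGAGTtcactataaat
Tfrc element 2: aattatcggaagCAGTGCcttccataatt
Tfrc element 3: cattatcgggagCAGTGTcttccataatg
Tfrc element 4: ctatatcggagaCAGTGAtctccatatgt
Tfrc element 5: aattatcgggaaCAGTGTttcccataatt
Fth1 element: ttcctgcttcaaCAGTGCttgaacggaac
Ftl1 element: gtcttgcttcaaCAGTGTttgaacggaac
Slc40a1 element: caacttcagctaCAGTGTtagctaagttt
The other 6 genes held no match to these letters, which does not speak to elements of other shapes.

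Library totals lay between 13875435 and 34239380 counts. Levels are in CPM, a library's counts divided by its total after TMM scaling, which corrects for differences in composition. Ifng itself was read at 4.98 to 17.9 CPM in IFNG libraries and at 0 to 0.170 CPM in Control libraries, and its induced transcription factor gene Irf1 at 192 to 245 CPM in IFNG libraries, against 2.69 to 4.10 CPM in Control. All 12 libraries matched their labels by these genes. The summed level of 18 pan-neuronal markers was 6058 to 7606 CPM in IFNG, against 7813 to 8742 CPM in Control, and that of 18 astrocyte markers 5999 to 9131 CPM in IFNG, against 3569 to 4043 CPM in Control. Astrocyte RNA was thus present beside neuronal RNA, and in such bulk samples fewer cells of a type and less RNA per cell cannot be told apart. The summed level of 20 microglial genes was 44.7 to 59.3 CPM in IFNG, against 34.4 to 42.3 CPM in Control, with no overlap, and 15 of the 20 were too low to test. Most of the sum came from few genes, among them Sall1 at a mean of 30.5 CPM in IFNG, against 18.9 CPM in Control. Of the defining microglial genes, Tmem119 averaged 0.0215 CPM in IFNG, against 0 in Control, and Cx3cr1 0.0788 CPM in IFNG, against 0.218 CPM in Control, while P2ry12 rose, to 0.965 CPM in IFNG, against 0.0719 CPM in Control. Tmem119 and Cx3cr1 were picked after values were seen and do not sum up the list. The 9 erythroid genes together reached at most 2.26 CPM in any library.

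Of the 9 iron genes tested, Steap3 was higher and Tfrc was lower in IFNG than in Control, and 7 did not pass edgeR's quasi-likelihood test (Benjamini-Hochberg adjusted p under 0.05 over 15241 genes). Among all genes tested 24.1% passed, 14.3% as higher and 9.79% as lower, so the counts of 1 and 1 of 9 lie near the background and are no result about the genes as a group. Their median log2 fold change was -0.08, beside -0.02 for all genes tested. Steap3 changed 15.5-fold, and the other 8 had log2 fold changes between -0.45 and 0.20.

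**Figure D1:**
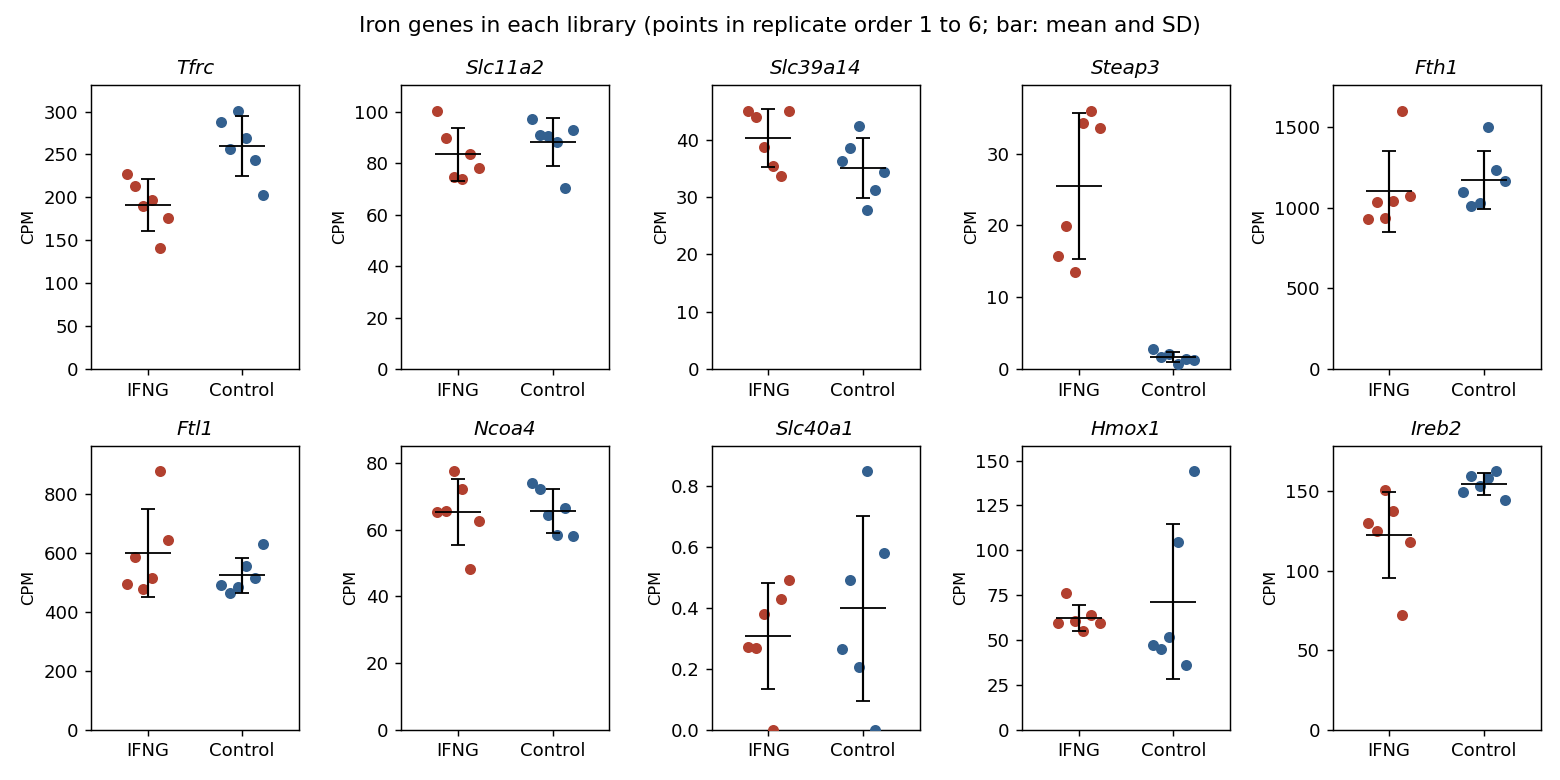
Level of each of the 10 iron genes in CPM (vertical axes, linear, from 0) in the 6 IFNG libraries (left, red) and the 6 Control libraries (right, blue), with mean and SD. Only the Steap3 panel shows groups that do not overlap, at 13.5 to 36.0 CPM in IFNG, against 0.622 to 2.75 CPM in Control, and Slc40a1 stays under 1 CPM in all 12.

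Steap3 (chromosome 1, 120190757 to 120272705, minus strand, GRCm38 as for the genes below) encodes the ferrireductase of the endosome and is also known as a target of p53. It stood at 15.8, 19.97, 13.5, 34.2, 36.0 and 33.6 CPM in IFNG replicates 1 to 6, and at 2.75, 1.64, 2.12, 0.622, 1.41 and 1.31 CPM in Control replicates 1 to 6. Every IFNG library lay above every Control library. Of all genes tested 12.8% had groups that did not overlap, 8.75% with IFNG above and 4.09% with IFNG below, and among the 9 iron genes Steap3 was the 1 that did so. The log2 fold change was 3.96 ± 0.31 (SE, n = 6 each, edgeR adjusted p = 4.49e-09), or 15.5-fold. In raw counts the IFNG libraries held 232 to 837 and the Control libraries 11 to 52, so the Control level was low but above 0 in each. By log2 fold change Steap3 ranked at place 221 from the top of the 15241 genes. Within IFNG, replicates 4 to 6 lay between 33.6 and 36.0 CPM and replicates 1 to 3 between 13.5 and 19.97 CPM, with no value between. The 3 IFNG libraries with the least Steap3 were also those with the smallest astrocyte marker sum (5999, 6721 and 8043 CPM, against 8237 to 9131 CPM in the others). The match was seen after the fact and was not tested. Ifng was also lowest in IFNG replicates 3 and 1, at 4.98 and 7.88 CPM, but stood at 12.6 CPM in replicate 2.

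All 16 astrocyte markers tested rose, where 14.3% of all genes tested did. Aldh1l1 rose by 1.56 ± 0.10 and Slc1a3 by 1.65 ± 0.12 on the log2 scale. The sum of the astrocyte list was 2.06 times as high in IFNG as in Control. Expressed per 1000 CPM of the astrocyte marker sum, a description chosen after the values were seen, Steap3 lay at 2.25 to 4.24 in IFNG and 0.174 to 0.679 in Control libraries. These ranges did not overlap, and the means differed 7.44-fold. Which cells made the Steap3 message is not known from bulk samples, and the part of astrocytes in its rise was not tested.

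Tfrc (chromosome 16, 32608920 to 32632794, plus strand), the transferrin receptor gene with the 3′ UTR elements shown above, read 227, 214, 190.2, 197, 141 and 176 CPM in IFNG replicates 1 to 6, and 288, 256, 301, 269, 244 and 202 CPM in Control replicates 1 to 6. In 4 of 6 IFNG libraries it lay below every Control library, and the groups overlapped through Control replicate 6. It fell by 0.45 on the log2 scale (SE 0.11, n = 6 each, edgeR adjusted p = 0.00691), to 0.734 of the Control level. Of 18 pan-neuronal markers 9 fell and 0 rose, where 9.79% of all genes tested fell and 14.3% rose. The median of the markers was -0.29 on the log2 scale, and Dcx, a gene of immature neurons, fell by 0.83. Per 1000 CPM of that marker sum, again chosen after the values were seen, Tfrc stood at 23.3 to 33.9 in IFNG and 24.8 to 36.9 in Control libraries. These ranges overlapped widely, and the IFNG mean was 0.906 of the Control mean. The part of the neuronal markers in the fall of Tfrc was not tested. Against a fold change of 1.2 rather than no change, a test that 3.01% of all genes passed as lower, Tfrc did not pass (edgeR glmTreat adjusted p = 0.116), and over the 21 alternatives its adjusted p ran from 0.00156 to 0.116.

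**Figure D2:**
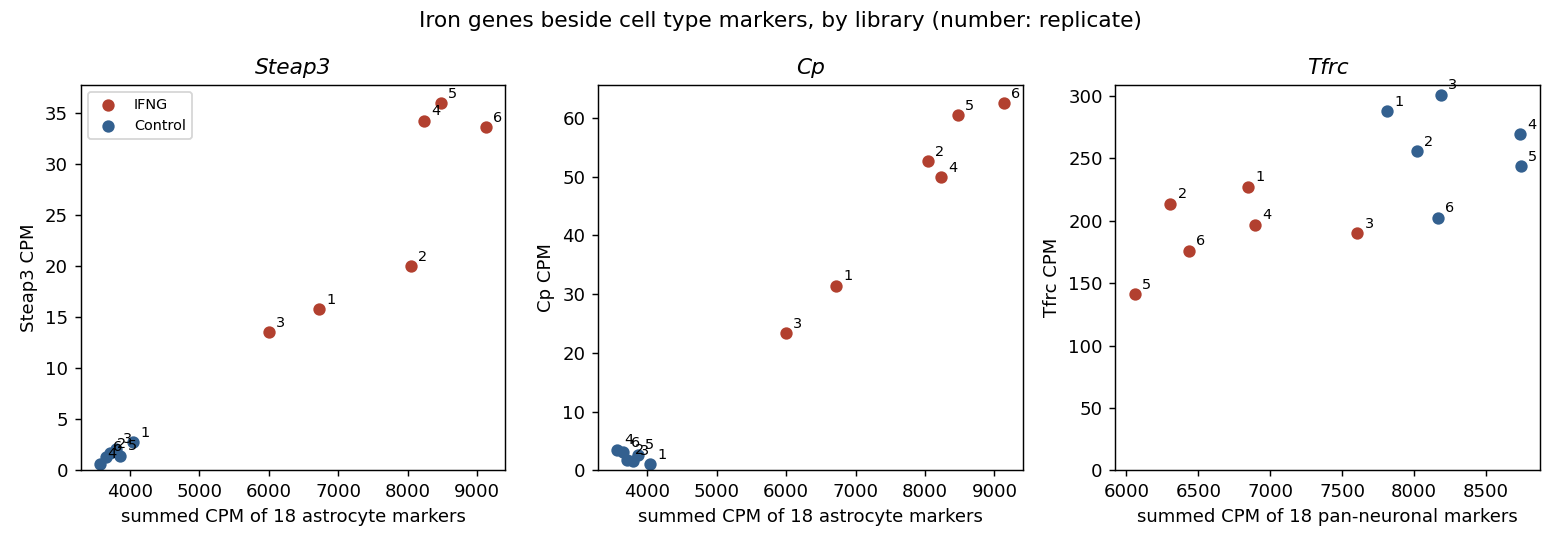
Steap3, Cp and Tfrc in CPM (vertical axes) against the summed CPM of 18 astrocyte markers (left and middle panels) or 18 pan-neuronal markers (right panel), with a point for each IFNG (red) and Control (blue) library and its replicate number. Steap3 and Cp are high in all 6 IFNG libraries, where astrocyte markers sum to 5999 to 9131 CPM, and Tfrc is lowest in IFNG replicate 5, at 141 CPM and the smallest neuronal sum.

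The other uptake genes did not pass. Slc11a2 (chromosome 15, 100387898 to 100425072, minus strand), the gene of the endosomal iron transporter, ranged from 74.0 to 100.5 CPM in IFNG (median 80.8), against 70.3 to 97.2 CPM in Control (median 91.0), with a log2 fold change of -0.08 ± 0.099 (adjusted p = 0.593). Its forms with and without an iron-responsive element are not separated in gene counts. It overlaps Gm5475 on the other strand, which held 172 counts over all libraries, and the strand setting of the counting is not given. Slc39a14 (chromosome 14, 70303469 to 70351425, minus strand), the gene of ZIP14, ranged from 33.7 to 45.1 CPM in IFNG, against 27.8 to 42.5 CPM in Control. At a log2 fold change of 0.20 ± 0.12 (adjusted p = 0.232) it had 3 IFNG libraries above every Control library. Among the 4 uptake genes, then, the reductase gene rose, the receptor gene fell, and neither transporter gene passed. The groups overlapped for the receptor gene and both transporter genes, and were separate for the reductase gene alone.

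Within a library, the log2 ratio of Steap3 to Tfrc counts does not depend on the scaling. It was -3.00 ± 0.80 in IFNG and -7.44 ± 0.69 in Control libraries (SD, n = 6 each), and the groups did not overlap. The log2 ratio of Slc11a2 to Tfrc was -1.19 ± 0.23 in IFNG and -1.55 ± 0.24 in Control libraries and overlapped. The ratios are given as descriptions, without a test.

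**Figure D3:**
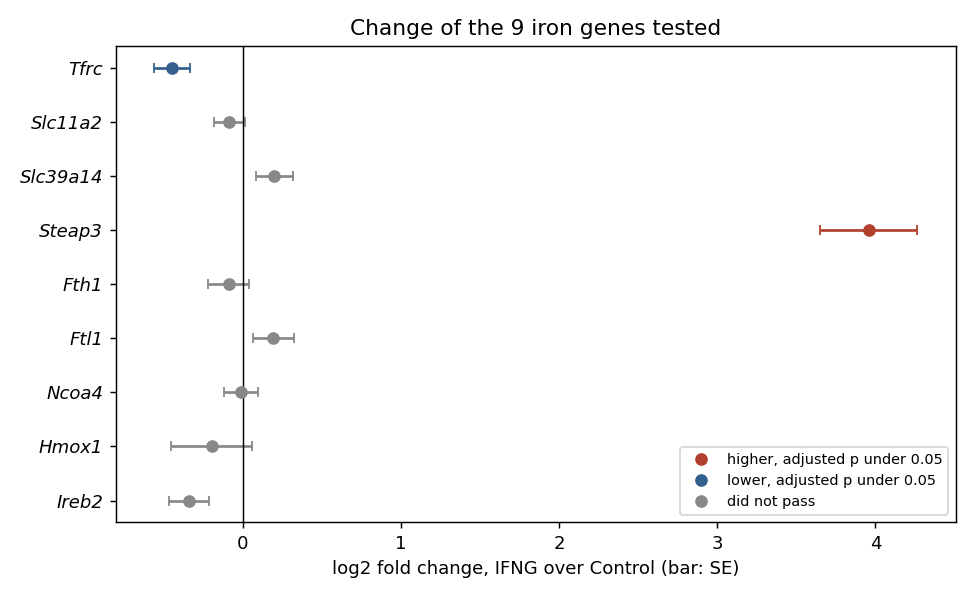
Log2 fold change of IFNG over Control (horizontal axis) with its SE for the 9 iron genes tested. Steap3 stands alone at 3.96, Tfrc at -0.45 is the other gene that passed, and the 7 in grey lie between -0.34 for Ireb2 and 0.20 for Slc39a14.

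The ferritin genes were the most abundant of the 10 and did not pass. Fth1 (chromosome 19, 9980598 to 9985098, plus strand), which encodes the heavy chain that oxidises iron, read 930.2, 1034, 938, 1041, 1601 and 1072 CPM in IFNG replicates 1 to 6, and 1096, 1010.4, 1029.9, 1498, 1235 and 1165 CPM in Control replicates 1 to 6. Ftl1 (chromosome 7, 45457944 to 45459884, minus strand), the light chain gene, read 495, 585, 478, 516, 877 and 645 CPM in IFNG replicates 1 to 6, and 492.8, 465, 484, 557, 516 and 629.5 CPM in Control replicates 1 to 6. The groups overlapped for both chains, with log2 fold changes of -0.09 ± 0.13 for Fth1 (adjusted p = 0.672) and 0.19 ± 0.13 for Ftl1 (adjusted p = 0.308). The sign of Fth1 turned without Control replicate 4 (0.0041) and when risen genes were left out of the totals (0.027), and it passed in neither.

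IFNG replicate 5 held the highest level of both ferritin genes and, among IFNG libraries, the lowest of Tfrc, Ireb2, Ncoa4 and Slc39a14. Without it the log2 fold change of Fth1 was -0.21 (adjusted p = 0.121) and that of Ftl1 0.06 (adjusted p = 0.693), while Tfrc still passed at -0.36 (adjusted p = 0.0110). That replicate also had the smallest pan-neuronal sum of the 12 libraries, the highest Steap3 (36.0 CPM) and the highest Ifng (17.9 CPM, the next 12.6 in IFNG replicate 2). Links between these were not tested. Over all genes IFNG replicate 5 stood apart within its group, with a chi-square per gene of 49.3 to 81.7 against the other IFNG libraries, where pairs of those gave 14.2 to 45.8.

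The proportion of heavy to light chain message was read within each library. The log2 ratio of Fth1 to Ftl1 counts was 0.89 ± 0.10 in IFNG and 1.16 ± 0.18 in Control libraries (SD, n = 6 each). It ranged from 0.73 to 1.01 in IFNG and from 0.89 to 1.43 in Control libraries, and the groups overlapped through Control replicate 6 alone. The log2 ratio of Tfrc to Fth1, which sets uptake beside storage, was -2.52 ± 0.52 in IFNG and -2.17 ± 0.32 in Control libraries and also overlapped. The difference of its means was -0.35, and -0.15 without IFNG replicate 5.

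Ferritin genes have processed copies elsewhere in the genome that can take or lose reads. Beside Fth1 and Ftl1 the table held 13 rows with symbols that begin with Fth or Ftl, 9 of them at 0 counts in every library, and the mitochondrial ferritin gene Ftmt was at 0 in every library too. The largest of the 13, Ftl1-ps1 on chromosome 13, held 623 counts in IFNG and 341 in Control libraries, 0.724% of the counts of Ftl1. How reads that match several copies were assigned is not given, so the division is uncertain. Ftl1 also overlaps 2 other annotated genes, of which Gm22133 held 0 counts and Gm10252 had no row among the deposited counts.

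Ncoa4 (chromosome 14, 32159865 to 32179855, plus strand), the gene of the receptor that leads ferritin to the lysosome, ranged from 48.3 to 77.5 CPM in IFNG (median 65.5), against 58.3 to 74.1 CPM in Control (median 65.5). The log2 fold change stood at -0.01 ± 0.11 (adjusted p = 0.962). The means, 65.3 ± 9.94 CPM in IFNG, against 65.7 ± 6.71 CPM in Control (SD, n = 6 each), differed by far less than either spread.

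Slc40a1 (chromosome 1, 45908068 to 45926523, minus strand), the gene of the exporter ferroportin, was near the detection limit in both groups. It held 4, 9, 7, 0, 10 and 10 counts in IFNG replicates 1 to 6, and 5, 9, 3, 15, 0 and 12 counts in Control replicates 1 to 6. That is 0 to 0.490 CPM in IFNG, against 0 to 0.848 CPM in Control, with 40 and 44 counts over the groups. It did not reach the filter on low counts and was not tested.

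Hmox1 (chromosome 8, 75093621 to 75100589, plus strand), the inducible haem oxygenase gene, read 59.4, 76.0, 60.4, 54.8, 63.9 and 59.3 CPM in IFNG replicates 1 to 6, and 47.2, 45.0, 51.4, 105, 36.3 and 144 CPM in Control replicates 1 to 6. The IFNG libraries lay close together, above 4 Control libraries and below the other two, Control replicates 4 and 6. The SD was 7.32 CPM in IFNG, against 43.1 CPM in Control (n = 6 each). The log2 fold change was -0.20 ± 0.26 (adjusted p = 0.630), and 0.15 without Control replicate 6 (adjusted p = 0.662) or -0.05 without Control replicate 4 (adjusted p = 0.919).

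Ireb2 (chromosome 9, 54863789 to 54912530, plus strand), which encodes the iron regulatory protein IRP2, read 129.9, 125, 151, 138, 72.3 and 118 CPM in IFNG replicates 1 to 6, and 149, 159, 153, 158, 162 and 144 CPM in Control replicates 1 to 6. In 5 of 6 IFNG libraries it lay below every Control library. The log2 fold change was -0.34 ± 0.13 (unadjusted p = 0.0149, edgeR adjusted p = 0.0583), which did not pass. It passed in 5 of 21 alternatives, among them DESeq2 (adjusted p = 0.0449, where 11.4% of all genes were lower), limma-voom (0.0422, 10.6%), library totals without a composition factor (0.0393, 12.2%) and the fit without IFNG replicate 3 (0.0230, 11%). Over the 21 its adjusted p ran from 0.0230 to 0.410. Per 1000 CPM of the pan-neuronal sum it stood at 11.9 to 19.98 in IFNG and 17.7 to 19.9 in Control libraries. The ranges overlapped, and the IFNG mean was 0.972 of the Control mean. The part of the neuronal markers was not tested here either.

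Set per length, as mean CPM per kilobase of annotated exon, the levels in IFNG ran from Ftl1 (447) and Fth1 (318) through Hmox1 (35.6), Tfrc (30.9), Slc11a2 (13.1), Ireb2 (12.9), Ncoa4 (6.97), Steap3 (4.46) and Slc39a14 (3.82) to Slc40a1 (0.0341). In Control the order was Ftl1 (391), Fth1 (338), Tfrc (42.0), Hmox1 (40.8), Ireb2 (16.3), Slc11a2 (13.9), Ncoa4 (7.01), Slc39a14 (3.33), Steap3 (0.287) and Slc40a1 (0.0443). The ranges of the 6 libraries overlapped between Ftl1 and Fth1, between Hmox1 and Tfrc and between Slc11a2 and Ireb2 in both groups. These ranges run across libraries and do not give the order of 2 genes within each library, which was not compared. In IFNG libraries Ireb2 also overlapped Ncoa4, and Steap3 overlapped both Ncoa4 and Slc39a14. In Control libraries it lay below Slc39a14 and above Slc40a1 with no overlap. Exon length was the union over annotated transcripts, which understates genes with long rare forms.

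The rest of the pathway was read from 5 lists holding 94 other genes, of which 78 were tested, 12 rose and 6 fell. These are 15.4% and 7.69% of those tested, beside 14.3% and 9.79% of all genes tested, and the median log2 fold change was 0.09. Scaled on totals without the genes that rose, which moves the median of all genes to 0.10 on the log2 scale, 17 rose and 2 fell, while 19.4% and 4.93% of all genes did.

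**Figure D4:**
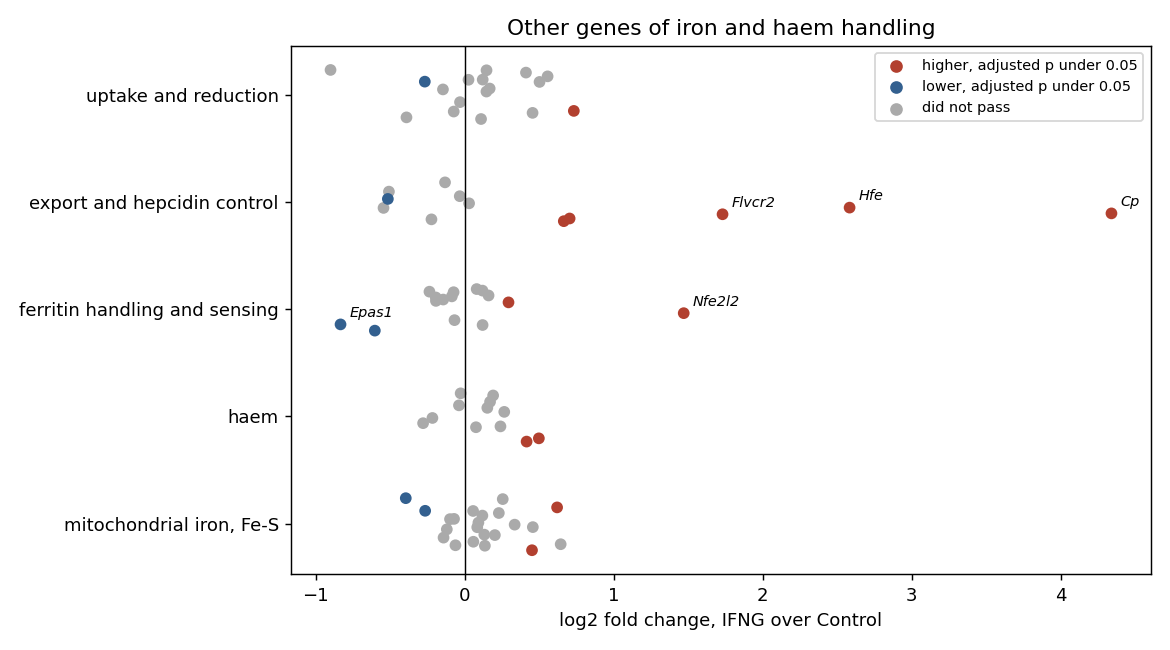
Log2 fold change of IFNG over Control (horizontal axis) for the 78 tested genes of 5 lists of iron and haem handling (rows), coloured by the edgeR call; vertical scatter within a row only separates points. Cp at 4.34, Hfe at 2.58, Flvcr2 at 1.73 and Nfe2l2 at 1.47 lie to the right of the rest, and Epas1 at -0.83 is the lowest gene that passed.

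Of 12 tested genes listed under export, ferroxidases and hepcidin control, 5 rose and 1 fell (41.7% and 8.33%), where 14.3% of all genes tested rose and 9.79% fell. The list was drawn up with earlier results known and holds genes with other roles, such as Prnp and Hfe. Its counts are therefore no result about export as such. Cp, Hfe and Flvcr2 had the highest log2 fold changes of the 78 tested genes of the 5 lists. Cp encodes ceruloplasmin, the ferroxidase that works with ferroportin and is made by astrocytes in a membrane-bound form. It read 31.5, 52.6, 23.4, 49.96, 60.5 and 62.6 CPM in IFNG replicates 1 to 6, and 1.06, 1.81, 1.64, 3.50, 2.66 and 3.10 CPM in Control replicates 1 to 6. The groups did not overlap, and the log2 fold change was 4.34 ± 0.28 (adjusted p = 2.08e-10). Per 1000 CPM of the astrocyte marker sum it stood at 3.89 to 7.14 in IFNG and 0.261 to 0.982 in Control libraries, which did not overlap either. The part of astrocytes in the rise of Cp was not tested.

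Hfe, whose product resembles a class I antigen-presenting protein and binds the transferrin receptor, averaged 5.21 ± 1.71 CPM in IFNG, against 0.863 ± 0.649 CPM in Control (mean ± SD of 6 each; log2 fold change 2.58 ± 0.39, edgeR adjusted p = 4.32e-05). The prion protein gene Prnp, reported to act as a ferrireductase, averaged 588 ± 96.2 CPM in IFNG, against 361 ± 31.3 CPM in Control (log2 fold change 0.70 ± 0.10). The haem transporter family gene Flvcr2 rose by 1.73 ± 0.54 at a low level, and Bmp2, which can induce hepcidin in liver, by 0.67 ± 0.21. Heph, the ferroxidase hephaestin, fell by 0.52, and App, the most abundant gene that did not pass, stood at 1851 ± 189 CPM in IFNG, against 1813 ± 117 CPM in Control. Hamp, the hepcidin gene itself, was not tested for lack of counts. Flvcr2 passed in 14 of 20 alternatives, Bmp2 in 18 of 21 and Heph in 8 of 21. Among single libraries left out, the call of Flvcr2 was lost without IFNG replicate 5 or Control replicate 1 or 2 (adjusted p = 0.0541 to 0.0742), and that of Bmp2 without IFNG replicate 3 or 4 (0.0573 and 0.0504). The call of Heph was lost without any of IFNG replicates 1 to 4 or Control replicates 1 to 3, 5 or 6 (0.0569 to 0.103).

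Of 17 other uptake and reduction genes tested, Cybrd1 rose and Cyb561 fell. That is 5.88% each way, beside 14.3% higher and 9.79% lower among all genes tested. Cybrd1, a ferric reductase of the cell surface first described in the gut, averaged 15.1 ± 1.81 CPM in IFNG, against 9.11 ± 2.23 CPM in Control (log2 fold change 0.73 ± 0.16, adjusted p = 0.00154), and the groups did not overlap. Cyb561, a reductase of secretory vesicles, fell by 0.27 (adjusted p = 0.0455) and passed in 8 of 21 alternatives (0.0225 to 0.624). Its call was lost without any of IFNG replicates 2 to 4 or 6 or Control replicates 1, 3, 4 or 6 (0.0758 to 0.136). Slc22a17, the receptor of lipocalin and the most abundant of the list, stood at 640.4 ± 109 CPM in IFNG, against 629 ± 82.3 CPM in Control (adjusted p = 0.902). Transferrin itself, Trf, was under 1 CPM in every library and not tested. Also too low to test was Slc39a8, the gene of the metal transporter ZIP8, which held 59 counts in IFNG, against 3 in Control. IFNG replicate 2 alone held 30 of the 59. Levels were 0.147 to 0.895 CPM in IFNG and at most 0.0969 CPM in Control. In CPM the groups did not overlap, but IFNG replicate 4 and Control replicate 6 each held 2 counts, so only library size parts them.

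Among 15 genes of ferritin handling and iron sensing tested, 2 rose and 2 fell. This is 13.3% each way, beside 14.3% higher and 9.79% lower among all genes tested. Nfe2l2, the gene of NRF2, a regulator that activates ferritin and haem oxygenase genes, averaged 57.7 ± 11.7 CPM in IFNG, against 20.8 ± 2.78 CPM in Control (mean ± SD of 6 each; log2 fold change 1.47 ± 0.13). Per 1000 CPM of the astrocyte marker sum Nfe2l2 lay at 6.34 to 8.49 in IFNG and 4.56 to 6.86 in Control libraries, which overlapped, and the means differed 1.34-fold. That sum was itself 2.06 times as high in IFNG and was again chosen after the values were seen. The part of astrocytes in the rise of Nfe2l2 was not tested. Epas1, the hypoxia factor HIF-2 alpha, averaged 39.0 ± 10.0 CPM in IFNG, against 69.4 ± 8.95 CPM in Control and fell by 0.83 (adjusted p = 0.000159), with no overlap. Pcbp3, of the family of iron chaperone genes, fell by 0.60. Aco1, which encodes the other iron regulatory protein, stood at 0.12 ± 0.085 on the log2 scale and Fbxl5, which marks IRP2 for degradation, at -0.24 ± 0.12, and neither passed (adjusted p = 0.337 and 0.168). Herc2 was the most abundant gene that did not pass, at 203 ± 56.3 CPM in IFNG, against 224 ± 58.5 CPM in Control.

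Of 12 haem genes tested 2 rose and 0 fell, or 16.7% and 0%, beside 14.3% and 9.79% of all genes tested. Ppox, which encodes an enzyme of haem synthesis, rose by 0.50 ± 0.17. Ppox passed in 10 of 21 alternatives (adjusted p = 0.00835 to 0.175). Its call was lost without IFNG replicate 2, 5 or 6 or any of Control replicates 1 to 5 (adjusted p = 0.0540 to 0.107). Hmox2, the constitutive haem oxygenase gene, stood at -0.04 ± 0.10 (adjusted p = 0.832). Pgrmc1, the most abundant, was at -0.28 ± 0.11 (adjusted p = 0.0610) and passed in 5 of 21 alternatives (0.0218 to 0.581), among them without IFNG replicate 5 (0.0366) or Control replicate 2 (0.0348), on library totals (0.0325) and with DESeq2 (0.0413).

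Of 22 genes of mitochondrial iron import and iron-sulfur cluster assembly, 2 rose and 2 fell. That is 9.09% each way, beside 14.3% higher and 9.79% lower among all genes tested. The importer genes moved apart. Slc25a28 (mitoferrin 2) averaged 36.2 ± 4.56 CPM in IFNG, against 26.5 ± 1.99 CPM in Control and rose by 0.45 ± 0.10 (adjusted p = 0.00298). Slc25a37 (mitoferrin 1) averaged 44.5 ± 9.58 CPM in IFNG, against 58.5 ± 3.12 CPM in Control and fell by 0.40 (adjusted p = 0.0277), and neither gene's groups overlapped. Bola3, of cluster assembly, rose by 0.62 ± 0.15 and Isca1 fell by 0.27, while Hspa9, the abundant mitochondrial chaperone, stood at 0.08 ± 0.090 (adjusted p = 0.547). The call of Slc25a37 was lost without IFNG replicate 4 or 6 or Control replicate 2, 4 or 6 (adjusted p = 0.0552 to 0.0663). Slc25a37 passed in 14 of 21 alternatives and Isca1 in 7 of 21 (adjusted p = 0.0264 to 0.633). The call of Isca1 was lost without IFNG replicate 1, 2, 4 or 6 or any of Control replicates 1 to 4 (0.0795 to 0.124).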

How the data were processed

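The authors deposited a table of raw, whole-number counts by Ensembl gene for the 12 samples. The submitters' processing notes name STAR 2.4, DESeq2 and the builds GRCm39 and mm10, without saying what each was used for. For the counter, its strand setting and its annotation nothing is stated in the labels. Symbols and coordinates came from GENCODE M21 (GRCm38), which matched 42548 of 43629 identifiers; the counting may have used another annotation.

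Counts were scaled by TMM, filtered by filterByExpr and tested, IFNG over Control and unpaired, by the two-sided quasi-likelihood test of edgeR 4.0.16 under R 4.3.3. Adjusted p-values (Benjamini-Hochberg) were called under 0.05. SE was taken as the log2 fold change, without sign, over the root of its F value. The code of the fit was checked on counts simulated from the levels and spread of Control libraries. The spread of IFNG libraries was not simulated, so the check does not bear on the p-values given here. Alternatives were DESeq2 size factors, library totals, totals without the genes that rose, other filters, a replicate block, each library left out, DESeq2 1.42.0, limma-voom (limma 3.58.1) and glmTreat.

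The 10 genes and all lists were chosen with earlier results of these data known. Named were the 10 genes, Ifng and Irf1. From each pathway list the rule took up to 6 genes that passed and the most abundant that did not, and from each marker list the most abundant gene and that of smallest p. Hamp, Trf, Slc39a8, Ftmt, Aco1, Fbxl5, Hmox2, Tmem119 and Cx3cr1 were added after values were seen, as background. Some genes of the rule are not reported here.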

Additional observations from a re-analysis of the deposited data

Results flagged for a closer look

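Of 76 groups of 6 libraries checked, 7 held a library whose gap to its nearest neighbour exceeded Dixon's 95% limit. Chance alone gives about 1 in 20 for a single group. The groups reuse the same libraries and genes, so the 7 are not read as an excess. IFNG replicate 5 gave 4 of the 7. It read 1601 CPM of Fth1, the next IFNG library 1072, and 44.8 CPM of Slc25a28, the next 36.7. Its log2 ratio of Slc11a2 to Tfrc was -0.76, the next -1.17, and its log2 ratio of Ireb2 to Fth1 was -4.47, the next -3.18. In Control, replicate 5 read 70.3 CPM of Slc11a2, the next 88.3, replicate 3 read 13.3 CPM of Cybrd1, the next 9.44, and replicate 4 had a log2 ratio of Steap3 to Tfrc of -8.76, the next -7.43.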

How the results depend on the processing

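Steap3 passed as higher in all 21 alternatives (log2 fold changes, here and in the next sentences, of 3.80 to 4.17). Tfrc was lower in all 21 and passed in 20, the exception being the test against a fold change of 1.2 (-0.45, adjusted p = 0.116), so that 0 iron genes were called lower there. Ireb2 passed on library totals (-0.38), with DESeq2 (-0.34), with limma-voom (-0.38) and, leaving out single libraries, once, so that 2 iron genes were lower in each (range 1 to 2 over libraries left out). Same-numbered libraries are not shown to pair: their deviations correlated at -0.000964 to 0.124, 2 of 6 above 0.1, and 2 of 6 IFNG libraries correlated best with their own number. With the replicate number as a block 2114 genes were higher and 1563 lower, and Ireb2 passed (-0.37, adjusted p = 0.0492), giving 2 iron genes lower. With the block Pgrmc1 passed too (adjusted p = 0.0218), and Flvcr2 (0.0620), Cyb561 (0.0643) and Isca1 (0.0595) did not. Other settings also ended calls, with the adjusted p in brackets: no filter for Flvcr2 (0.0601), Heph (0.108), Cyb561 (0.132) and Isca1 (0.126), limma-voom for Flvcr2 (0.0544), Heph (0.0523), Ppox (0.0549) and Isca1 (0.0517), 1 CPM in 6 samples for Cyb561 (0.0538) and Isca1 (0.0537), library totals for Ppox (0.0533), totals without the genes that rose for Cyb561 (0.268), Heph (0.122), Slc25a37 (0.106) and Isca1 (0.272), and a fold change of 1.2 for Ppox (0.175), Heph (0.177), Bmp2 (0.0840), Slc25a37 (0.252), Slc25a28 (0.0809), Cyb561 (0.624) and Isca1 (0.633).

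Without single libraries the log2 fold changes ran from -0.50 to -0.36 for Tfrc, -0.41 to -0.21 for Ireb2, -0.21 to 0.0041 for Fth1, -0.065 to 0.076 for Ncoa4, -0.33 to 0.15 for Hmox1, and -0.046 to 0.075 for Slc22a17. On totals without the genes that rose, the signs of Slc11a2 (0.027), Fth1 (0.027) and Ncoa4 (0.10) turned, none passing, and 752 genes were lower over all genes, with 2961 higher (79.7% of calls, against 59.4%). Ncoa4 also turned with no filter (0.016) and with 1 CPM in 6 samples (0.0011), as did Slc22a17 (-0.019) and App (-0.014) on library totals. Of the pathway lists, 2 genes were lower on totals without the genes that rose, 3 with no filter and 2 against a fold change of 1.2, where 7 were higher and 458 of all genes lower. Leaving out libraries gave 3 to 7 lower. The causes were not tested. Slc40a1 had too few counts to be tested.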

Other observations

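Markers of other cell types also moved, and their part in the iron genes' results was not tested. Over all genes tested, 14.3% rose and 9.79% fell. For microglia 2 of 5 tested genes rose and 0 fell, P2ry12 with a log2 fold change of 3.60 and Sall1, the most abundant, with 0.69. For oligodendrocytes 1 of 11 rose, Cnp (2.13), and 2 fell, while the abundant Olig1 stood at -0.19 and did not pass. For endothelium 1 of 2 rose, Ly6c1 (7.29), an interferon-responsive surface antigen gene, and Pecam1 stood at -0.43 and did not pass. For fibroblast and mural cells 4 of 9 rose and 0 fell, with Igf2 at 5.18 and Fn1 at 0.59. For dividing cells 0 of 12 rose and 2 fell, one of them Pcna (-0.34), and the neuronal Map2 (-0.28) did not pass. No erythroid gene had enough counts to be tested, the most abundant being Epor, at 0.261 CPM in IFNG, against 0.415 CPM in Control.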
